A study of Mus musculus with 24 samples.

Results

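Amino acid transporters are the membrane proteins that carry amino acids into and out of cells, and 10 of their genes were followed here in mouse breast cancer cells: Slc7a5, Slc3a2, Slc1a5, Slc1a4, Slc38a1, Slc38a2, Slc7a11, Slc7a1, Slc6a9 and Slc43a1. They were chosen by symbol, and all 10 were among the 23478 gene symbols of the count table. Of these 10, 9 passed the filter on low counts and were among the 12625 genes tested, and Slc43a1 did not. The proteins divide the work by substrate. Slc7a5 (LAT1) trades intracellular amino acids such as glutamine for leucine and other large neutral amino acids, and it reaches the surface only bound to the heavy chain encoded by Slc3a2 (CD98), which also carries the cystine and glutamate exchanger Slc7a11. Slc1a5 (ASCT2), Slc38a1 (SNAT1) and Slc38a2 (SNAT2) take up glutamine, asparagine and other neutral amino acids with sodium. Several of these genes are known targets of ATF4, the transcription factor induced when amino acids run short.

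RNA was measured by sequencing in 24 libraries of 4T1-T cells, which are mouse mammary carcinoma cells, isolated from primary tumors or from lung metastases. All had been selected in 6TG (6-thioguanine, a drug that 4T1 cells resist and host cells do not), infected with an shRNA and cultured in DMEM to which non-essential amino acids were added. At each site, 4 libraries with the letters A to D carried shRenilla (a control hairpin against a luciferase that mouse cells lack), 4 carried shAsns-1 and 4 carried shAsns-2, both aimed at Asns, the gene of asparagine synthetase. Per the design text, the hairpins followed isolation of the cells, so the site is where the cells came from and not where they grew when RNA was taken. The labels do not say from how many animals, isolates or infections the 4 libraries of a group came, so p-values measure only the spread between these libraries, which may be technical. Levels are in CPM, read counts scaled to library size after TMM normalisation, given as mean ± SD with n = 4 per group.

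Asns itself did not follow its labels. It averaged 82.8 ± 15.9 CPM in tumor shRenilla, 36.8 ± 10.3 CPM in tumor shAsns-2 and 170 ± 17.1 CPM in the tumor libraries labelled shAsns-1. In lung the averages were 63.6 ± 7.89, 44.6 ± 6.51 and 194 ± 18.2 CPM. By edgeR it was higher under the label shAsns-1 at both sites (log2 fold change 1.04 and 1.61) and lower with shAsns-2 in tumor (-1.18, adjusted p = 0.00122, and 0.0502 with only the 2 groups in the fit), while in lung shAsns-2 all 4 libraries lay below shRenilla and limma called it (adjusted p = 0.00170) but edgeR did not (-0.51, adjusted p = 0.405). Whether the labels shAsns-1 and shRenilla were exchanged was not tested. Every direction below that involves either of them is therefore a direction between labels. Library totals ran from about 8480910 to 38049200 counts. No pair of libraries agreed within sampling noise (lowest chi-square per degree of freedom 4.74 within a group). On the first principal component of all tested genes lung shAsns-2 D lay at 0.199, apart from the other lung libraries (-27.0 to -13.2). It held the highest level of its group for 8 of the 9 tested transporters, so results that rest on it are given with and without it. Lung shRenilla B and tumor shAsns-2 D each held the highest level for 6 of 9, and tumor shRenilla C for 5. One alternative left out lung shAsns-2 D together with lung shRenilla B, a pair picked with earlier results of these data known. Lung shRenilla B is the upper end of that first-component range and does not lie apart on it.

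The sequence around annotated start sites was looked up because ATF4 acts through a composite C/EBP-ATF element. RefSeq promoter windows (build GRCm38.p6, 250 bases before to 50 after a start site) matched 7 of the 10 genes, in 10 windows. The motif TGATGNAA, sought on both strands, occurred in 3.97% of 32851 windows of 300 bases, and 2 or more copies in 0.07%. It was found in the windows of Slc7a11 and Slc1a4 and in no window of Slc3a2, Slc38a2, Slc7a1, Slc6a9 or Slc43a1. The windows of Slc3a2, Slc6a9 and Slc43a1 lie within the GENCODE span of the gene. For these genes the sequence upstream of that span was therefore not searched, and for no gene was sequence outside its windows searched. Slc7a11 held 2 copies on opposite strands, TGATGCAA starting 66 bases before the start site and TTGCATCA starting 47 bases before it. Slc1a4 held TTGCATCA starting 4 bases before its start site. The windows of Slc7a11 (chr3:50443564-50443863, minus strand), Slc1a4 (chr11:20332664-20332963, minus strand) and Slc3a2 (chr19:8713848-8714147, minus strand) are printed 5′ to 3′, to set the pair that hold the element beside the heavy chain gene whose level moved most. Capitals mark the element.
Slc7a11: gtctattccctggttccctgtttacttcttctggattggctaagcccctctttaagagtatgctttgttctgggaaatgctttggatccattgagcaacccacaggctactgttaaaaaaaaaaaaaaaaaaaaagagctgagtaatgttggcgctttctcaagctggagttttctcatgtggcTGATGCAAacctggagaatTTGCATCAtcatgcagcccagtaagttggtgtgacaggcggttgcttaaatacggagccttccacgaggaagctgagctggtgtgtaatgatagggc
Slc1a4: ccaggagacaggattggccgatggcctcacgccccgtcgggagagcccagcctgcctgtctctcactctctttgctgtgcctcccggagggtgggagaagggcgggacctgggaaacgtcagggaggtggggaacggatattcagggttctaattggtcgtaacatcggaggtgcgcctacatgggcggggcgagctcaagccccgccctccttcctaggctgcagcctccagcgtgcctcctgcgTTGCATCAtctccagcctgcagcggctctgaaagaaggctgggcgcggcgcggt
Slc3a2: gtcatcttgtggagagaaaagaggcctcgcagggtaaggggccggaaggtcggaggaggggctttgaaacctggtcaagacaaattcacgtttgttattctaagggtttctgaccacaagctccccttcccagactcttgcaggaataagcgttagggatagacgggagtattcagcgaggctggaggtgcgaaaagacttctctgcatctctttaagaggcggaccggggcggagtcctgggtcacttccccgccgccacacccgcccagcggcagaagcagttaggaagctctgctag

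The antioxidant response element TGACNNNGC, bound by NRF2, was present in 12.4% of all windows and once in a window of Slc38a2, Slc7a1 and Slc43a1 and in 2 of the 3 windows of Slc6a9. The E-box CACGTG was present in 7.15% of all windows and, of the 10 windows here, in that of Slc43a1. These matches describe letters in a window and not binding. As the values below show, Slc7a11 and Slc1a4 were called between no pair of tumor groups. Slc7a5, Slc1a5 and Slc38a1 had no window to set beside them, and the part of ATF4 in any transporter difference was not tested.

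Per kilobase of exon (GENCODE M21, GRCm38), the 10 genes covered a wide range of levels. In tumor shRenilla the sodium-coupled transporter Slc38a2 stood first at 368 ± 75.2 CPM per kb, followed by Slc3a2 at 57.4 ± 9.24 CPM per kb. Slc1a5 at 32.5 ± 7.07 and Slc7a5 at 26.4 ± 7.67 CPM per kb came next and overlapped in their libraries. Slc38a1 at 16.0 ± 1.28 and the cationic amino acid transporter Slc7a1 at 15.0 ± 3.36 CPM per kb also overlapped. Slc1a4, the alanine, serine, cysteine and threonine transporter, lay at 6.42 ± 1.18 and Slc7a11 at 3.49 ± 0.453 CPM per kb. The glycine transporter gene Slc6a9 was far lower at 0.206 ± 0.0497 CPM per kb. The order of Slc38a2 first, Slc3a2 next, and Slc1a4, Slc7a11 and Slc6a9 last among the 9 tested genes was the same in all 6 groups, as the plot of levels per exon length shows.

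**Figure D1:**
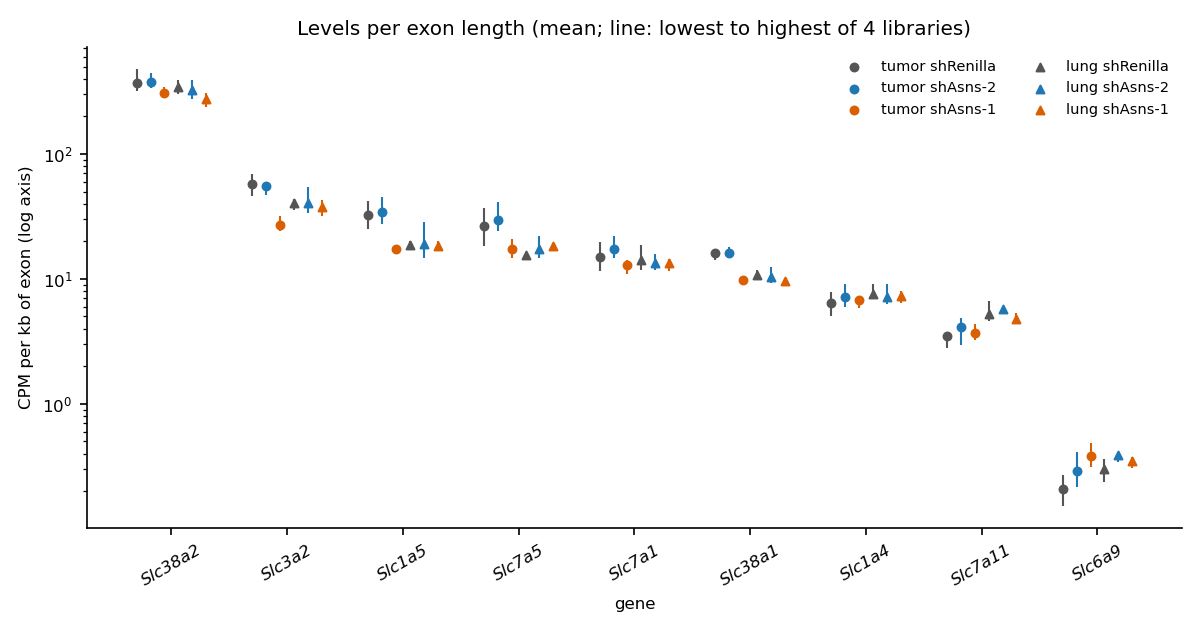
Level of each tested transporter gene in CPM per kb of exon on a log axis, with circles for tumor groups, triangles for lung groups, colour for the hairpin label, and lines from the lowest to the highest of 4 libraries. Slc38a2 lies above all other genes (368 CPM per kb in tumor shRenilla) and Slc6a9 below them (0.206), while neighbours such as Slc38a1 and Slc7a1 (16.0 and 15.0) overlap.

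Slc43a1, which encodes the large neutral amino acid transporter LAT3, was close to silent. It had 17 reads in all 24 libraries together, at most 2 in a library, and was at 0 in 13 of them. A count of 0 allows up to 3 counts, which is 0.0788 to 0.354 CPM depending on the library, by counting error alone. The filter on low counts left it out of the tests.

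The genes of the leucine exchanger, its heavy chain, and the glutamine transporters Slc1a5 and Slc38a1 shared a pattern: high in tumor shRenilla and tumor shAsns-2, and lower in the tumor libraries labelled shAsns-1 and in all 3 lung groups. For Slc3a2 the lung groups lay in between. It averaged 173 and 167 CPM in tumor shRenilla and shAsns-2, 113 to 123 CPM in lung, and 82.2 CPM under the tumor label shAsns-1. The plot of CPM by library shows this in its first 4 panels. The 2 sets of groups were set side by side after the values were seen and are given without a test. Slc38a1 ranged from 153 to 191 CPM in the 8 libraries of the high groups and from 97.3 to 134 CPM in the other 16, with no overlap. Slc3a2 ranged from 139 to 208 against 73.3 to 164 CPM, where 133 CPM was the highest without lung shAsns-2 D. Slc1a5 ranged from 69.9 to 125 against 40.7 to 78.4 CPM, or up to 56.0 CPM without that library. Slc7a5 ranged from 64.2 to 145 against 51.2 to 77.3 CPM and overlapped with or without it.

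**Figure D2:**
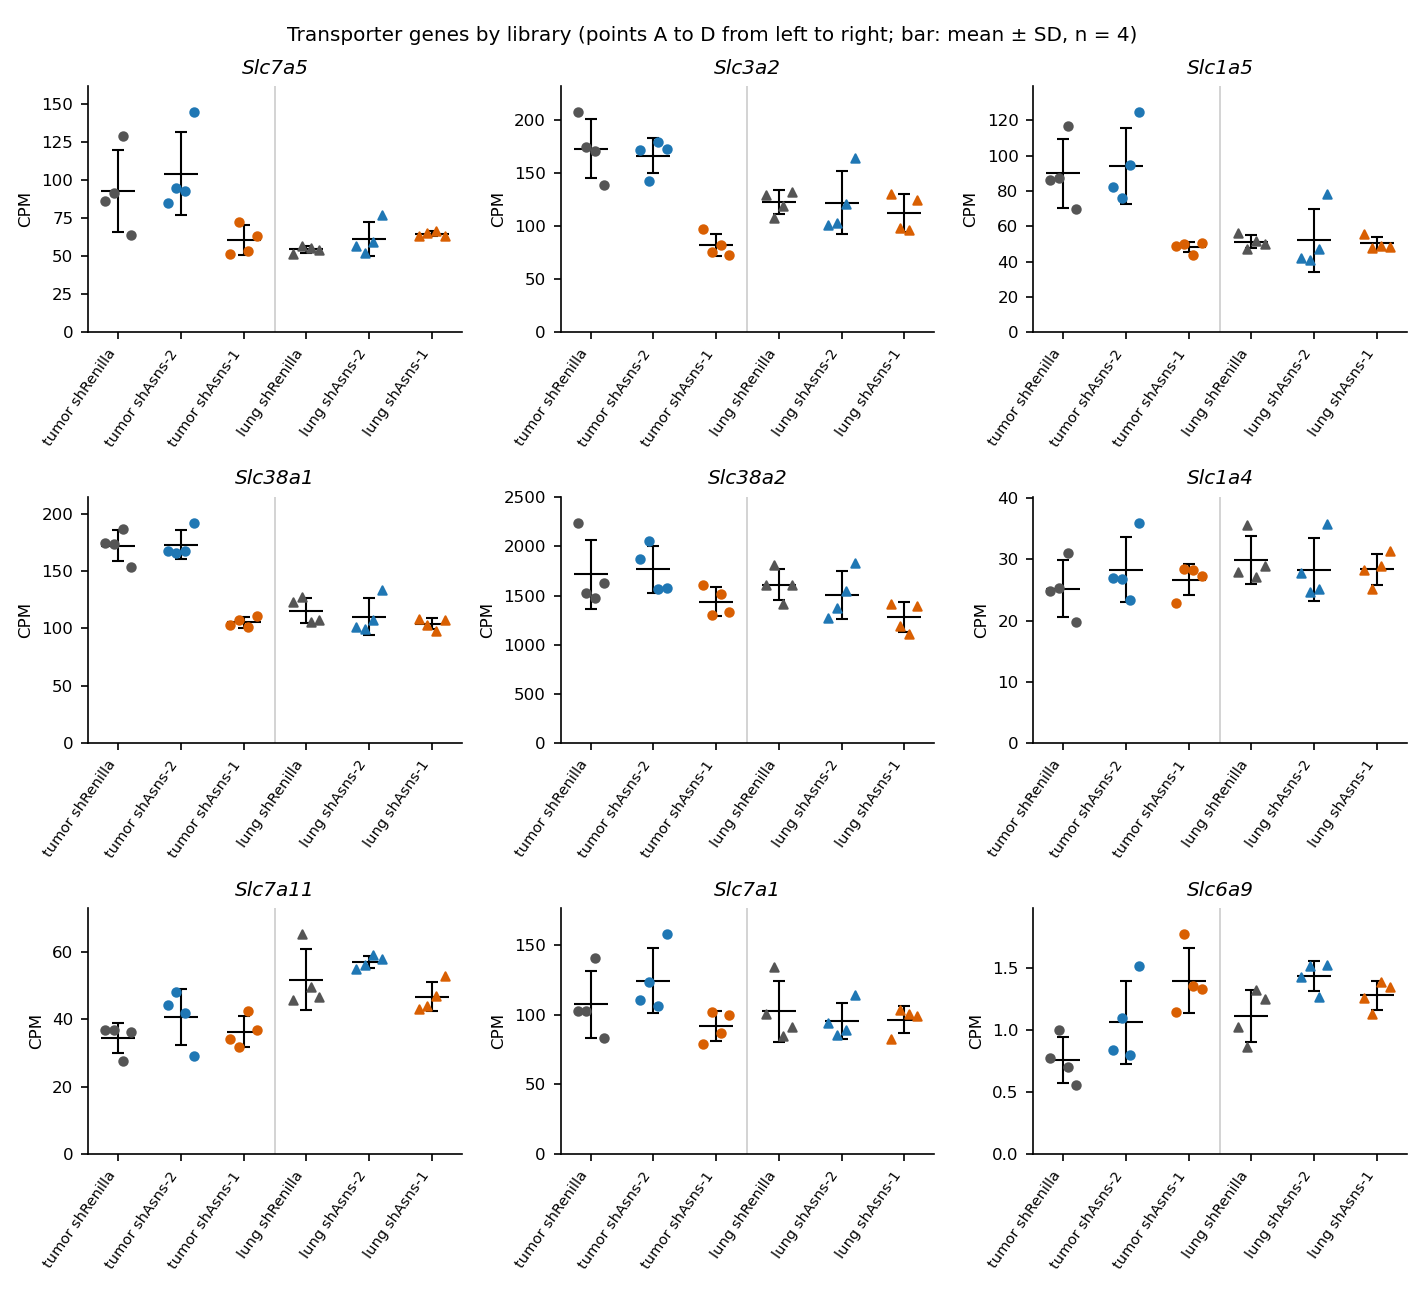
CPM of each tested transporter gene in all 24 libraries (circles tumor, triangles lung, colours for the hairpin label), with the mean and SD of the 4 libraries of a group. Slc38a1 separates into 153 to 191 CPM in tumor shRenilla and tumor shAsns-2 and 97.3 to 134 CPM elsewhere, while Slc1a4 stays between 19.7 and 35.9 CPM in every library.

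In tumor-derived cells, 5 of the 9 tested transporters were called between the labels shAsns-1 and shRenilla by edgeR's quasi-likelihood test (Benjamini-Hochberg adjusted p under 0.05 over all 12625 genes), 1 higher and 4 lower. Of all tested genes 33.9% were called in this comparison, 16.2% higher and 17.7% lower. The median log2 fold change of the 9 was -0.25, against -0.01 over all genes. The 4 lower genes were Slc3a2, Slc1a5, Slc38a1 and Slc7a5, and the higher one was Slc6a9. For 4 of the 9 the groups did not overlap, 1 above and 3 below (all genes: 37.2%, 18.6% in each direction).

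Slc3a2, the heavy chain shared by Slc7a5 and Slc7a11 (chromosome 19, 8706882 to 8723369, minus strand, GRCm38), showed the largest difference. In tumor libraries A to D it stood at 208, 175, 171 and 139 CPM with shRenilla, at 172, 142, 180 and 173 CPM with shAsns-2, and at 97.0, 76.0, 82.7 and 73.3 CPM under the label shAsns-1. Every library labelled shAsns-1 lay below every other tumor library. The log2 fold change was -1.08 ± 0.15 (SE) against shRenilla (adjusted p = 3.36e-06) and -1.02 ± 0.15 against shAsns-2 (adjusted p = 1.08e-05).

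Slc7a5, the light chain that carries leucine (chromosome 8, 121881150 to 121907694, minus strand), moved less than its partner. It stood at 86.2, 91.6, 129 and 64.2 CPM in tumor shRenilla A to D, at 85.0, 94.9, 92.7 and 145 CPM in tumor shAsns-2, and at 51.8, 72.9, 53.7 and 63.6 CPM under the label shAsns-1. These last libraries overlapped those of shRenilla, through shAsns-1 B and shRenilla D, and lay below all 4 of shAsns-2. The differences were -0.62 ± 0.17 against shRenilla (adjusted p = 0.00619) and -0.79 ± 0.17 against shAsns-2 (adjusted p = 0.00115). In GENCODE M21 an exon of Slc7a5 lies opposite Gm20388, and the strand setting of the counting is not given in the sources used here.

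Slc1a5, the exchanger of glutamine and other neutral amino acids (chromosome 7, 16781340 to 16798274, plus strand), was at 86.0, 87.2, 117 and 69.9 CPM in tumor shRenilla and at 82.1, 76.0, 94.8 and 125 CPM in tumor shAsns-2. Under the label shAsns-1 it was at 48.8, 50.1, 43.8 and 50.4 CPM, below every other tumor library. The differences were -0.90 ± 0.17 (adjusted p = 0.000247) and -0.97 ± 0.17 (adjusted p = 0.000161) from shRenilla and shAsns-2.

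Slc38a1, a sodium-coupled glutamine transporter (chromosome 15, 96571418 to 96642913, minus strand), had the smallest SD relative to its mean of these 4 genes in each tumor group. It was at 175, 173, 186 and 153 CPM in tumor shRenilla, at 168, 166, 167 and 191 CPM in tumor shAsns-2 and at 103, 107, 101 and 111 CPM under the label shAsns-1. The groups did not overlap, and the differences were -0.71 ± 0.10 against shRenilla (adjusted p = 4.93e-06) and -0.72 ± 0.10 against shAsns-2 (adjusted p = 6.22e-06).

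Their closest relatives did not pass the test. Slc38a2, which lies beside Slc38a1 on chromosome 15 (96687392 to 96699730, minus strand) and is known for its induction when amino acids are scarce, was at 2233, 1530, 1475 and 1625 CPM in tumor shRenilla and at 1604, 1307, 1513 and 1332 CPM under the label shAsns-1. The libraries overlapped, and the 95% interval of the log2 difference was -0.54 to 0.03 (adjusted p = 0.159). Against tumor shAsns-2 the interval was -0.58 to -0.01 (edgeR unadjusted p = 0.0416, adjusted p = 0.112), also not called. Slc1a4, the relative of Slc1a5 on chromosome 11 (20302180 to 20332713, minus strand), was at 24.9, 25.3, 31.0 and 19.7 CPM against 22.9, 28.4, 28.2 and 27.3 CPM. Its interval was -0.21 to 0.38 (adjusted p = 0.691). Over the 6 groups Slc1a4 was the flattest of the 9 genes, with group means of log2 CPM that spanned 0.26, a span wider than that of 12.3% of all genes. Those of Slc3a2, Slc1a5 and Slc7a5 spanned 1.07, 0.94 and 0.90.

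Slc6a9, the glycine transporter GlyT1 (chromosome 4, 117834506 to 117875198, plus strand), was the single transporter called higher, at a low level. It was at 0.779, 0.998, 0.701 and 0.561 CPM in tumor shRenilla, from 16 to 28 reads, and at 1.14, 1.77, 1.35 and 1.33 CPM under the label shAsns-1, from 30 to 48 reads. The groups did not overlap, and the log2 fold change was 0.88 ± 0.22 (adjusted p = 0.00322). In tumor shAsns-2 it was at 0.837, 1.10, 0.797 and 1.52 CPM and overlapped both. The value is uncertain as a measure of this gene, because its exons overlap the spans of Ccdc24 and B4galt2 on the other strand. Reads could not be assigned by strand, and whether exons of those genes overlap it was not looked up.

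Between the tumor libraries labelled shAsns-1 and shAsns-2, 5 of 9 transporters were called, all lower (27.1% of all genes called, 15% lower), and 5 lay entirely below (15.8% of all genes). Besides the 4 genes above this included Slc7a1, the arginine and lysine transporter CAT1 (chromosome 5, 148327410 to 148399904, minus strand). It was at 78.8, 102, 87.2 and 99.8 CPM under the label shAsns-1 and at 110, 123, 106 and 158 CPM in shAsns-2. Its difference of -0.44 ± 0.16 (adjusted p = 0.0377) was not firm. The call was lost without tumor shAsns-1 A, C or D or tumor shAsns-2 B or D (adjusted p from 0.0510 to 0.172) and without the filter on low counts (adjusted p = 0.0513). Against shRenilla Slc7a1 was not called (-0.22 ± 0.15, adjusted p = 0.274).

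Tumor shAsns-2, in which Asns was lower than in tumor shRenilla, showed 0 of 9 transporters called against shRenilla by edgeR, and 0 by DESeq2 or limma. For 1 gene the unadjusted p was under 0.05. In this comparison 0.0634% of all genes were called. That gene was Slc6a9 (log2 fold change 0.50 ± 0.24, edgeR adjusted p = 0.687). For the other 8 genes the 95% intervals lay between -0.36 and 0.53, narrower for Slc38a1 (-0.19 to 0.21) than for Slc7a5 (-0.18 to 0.52). The group means were close: 167 against 173 CPM for Slc3a2, 173 against 172 CPM for Slc38a1, and 94.4 against 90.0 CPM for Slc1a5. The median of the 9 was 0.17, against 0.01 over all genes.

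In lung-derived cells no transporter was called between hairpins by edgeR or DESeq2. For the label shAsns-1 against shRenilla the count was 0 of 9 (0.206% of all genes). Slc38a2 alone had an unadjusted p below 0.05, and limma with library weights called it and no other transporter (6.68% of all genes). It stood at 1418, 1193, 1105 and 1397 CPM against 1610, 1808, 1417 and 1606 CPM (log2 fold change -0.33 ± 0.14, adjusted p = 0.324 by edgeR and 0.0493 by limma). Slc7a5, which was lower under this label in tumor, lay above shRenilla here in all 4 libraries, at 63.4, 65.4, 66.8 and 63.6 against 51.2, 57.0, 55.7 and 54.3 CPM. Its difference of 0.25 ± 0.17 did not pass (adjusted p = 0.504), and 4.85% of all genes lay above in this way.

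For lung shAsns-2 against shRenilla 0 of 9 transporters were called (0% of all genes, and 0 of the 9 at an unadjusted p under 0.05). Limma with library weights, which gives outlying libraries less weight, called 2 (12.5% of all genes), Slc7a11 higher (0.24, adjusted p = 0.0411) and Slc1a5 lower (-0.27, adjusted p = 0.0463). For Slc1a5 the 4 lung shAsns-2 libraries were at 42.2, 40.7, 47.1 and 78.4 CPM against 56.0, 47.2, 51.7 and 50.0 CPM in shRenilla, and the edgeR difference was 0.02 ± 0.17 with library D and -0.21 without it (adjusted p = 0.603). Between the hairpins in lung 0 of 9 were called (0.261% of all genes). Slc7a11 had an unadjusted p below 0.05 and was the one transporter limma called (15.2% of all genes). It was at 43.1, 44.0, 46.8 and 52.9 CPM under the label shAsns-1 and 54.8, 56.0, 59.0 and 57.9 CPM in shAsns-2 (-0.29 ± 0.14, adjusted p = 0.865 by edgeR and 0.0197 by limma), with all 4 below, as for 2.23% of all genes.

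The difference between sites of the shAsns-1 label difference was tested directly. It was called for 4 of the 9 transporters, all higher in lung than in tumor (14.2% of all genes called, 6.96% higher). Slc3a2 differed by 0.95 ± 0.21 (adjusted p = 0.00258), Slc38a1 by 0.56 ± 0.14 (adjusted p = 0.00837), Slc7a5 by 0.87 ± 0.24 (adjusted p = 0.0158) and Slc1a5 by 0.87 ± 0.24 (adjusted p = 0.0167). In each of these genes the tumor difference was negative, while the lung difference was small: -0.12 for Slc3a2, -0.15 for Slc38a1, 0.25 for Slc7a5 and -0.03 for Slc1a5. For Slc38a2 (-0.08, 95% interval -0.48 to 0.32) and Slc7a11 (-0.23, -0.63 to 0.17) no difference between sites was called. The same test for shAsns-2 called 0 of 9 by edgeR, DESeq2 or limma (0% of all genes by edgeR), and no unadjusted p fell below 0.05. The plot of both sites against each other sets these values on one scale per label.

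**Figure D3:**
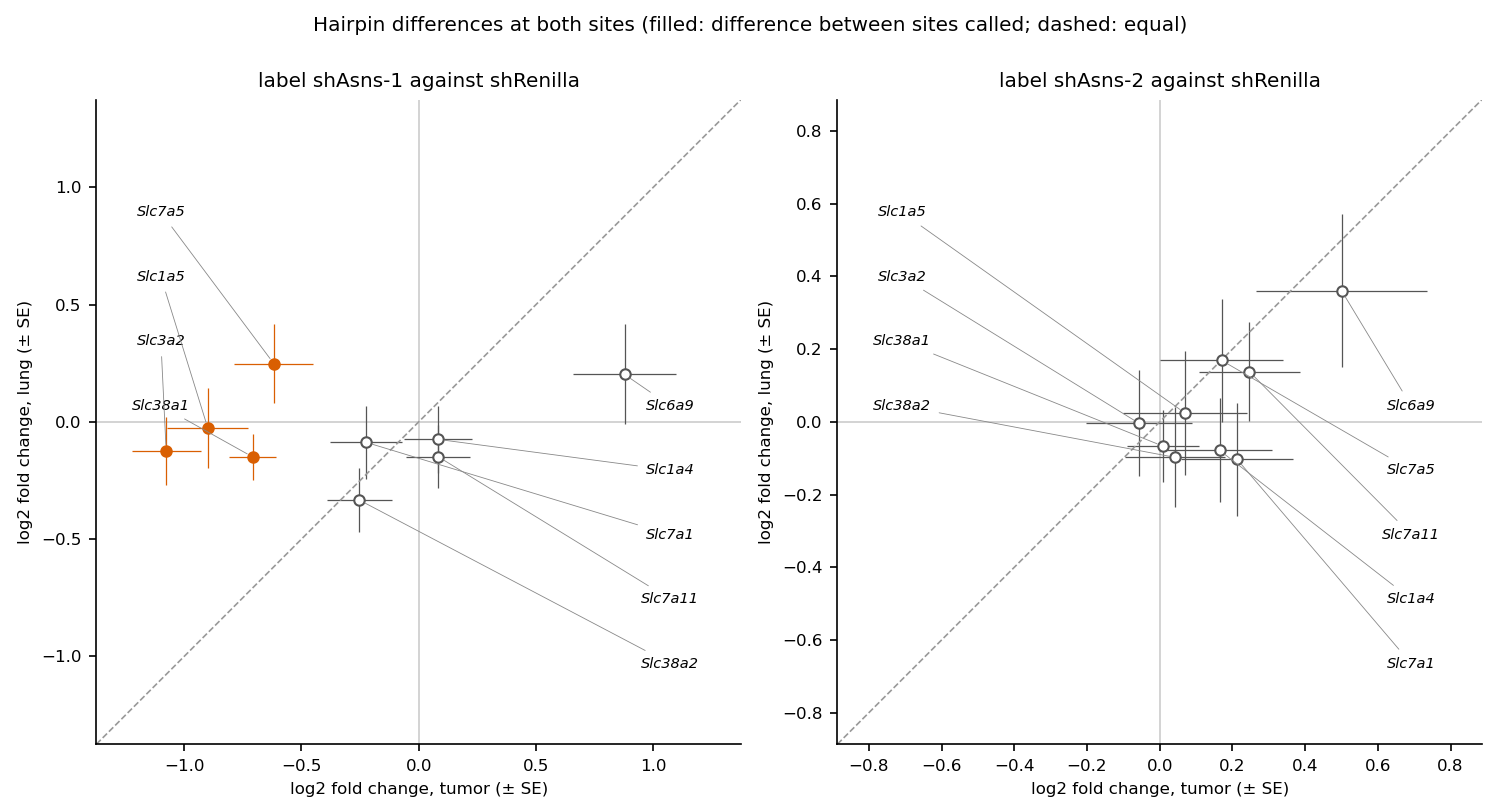
Log2 fold change against shRenilla in lung (vertical) and tumor (horizontal) for the labels shAsns-1 and shAsns-2, with SE bars, filled points where the difference between sites was called and a dashed line of equal values. Under shAsns-1 the 4 filled genes lie far left of the dashed line near a lung value of 0 (Slc3a2 at -1.08 in tumor and -0.12 in lung), and under shAsns-2 no point is filled.

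Lung-derived and tumor-derived cells were next compared within each label. With shRenilla, 5 of 9 transporters were called (21.8% of all genes), 1 higher and 4 lower in lung (12% and 9.82%), and in all 5 the groups did not overlap (22.2% of all genes, 12.2% above and 10.1% below). Slc3a2 was at 130, 108, 120 and 133 CPM in lung (-0.50 ± 0.15, adjusted p = 0.0144, and 0.0693 without tumor shRenilla A). Slc7a5 was at -0.77 ± 0.17 (adjusted p = 0.00155) and Slc1a5 at -0.81 ± 0.17 (adjusted p = 0.00102). Slc38a1 was at 123, 127, 105 and 107 CPM in lung (-0.57 ± 0.10, adjusted p = 0.000103). The tumor shRenilla libraries in these contrasts are those that also served the label comparison above, so the 2 sets of values are not independent.

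Slc7a11, which brings in cystine for glutathione synthesis (chromosome 3, 49892526 to 50443614, minus strand), went the other way. It ranged from 27.7 to 48.1 CPM in the 12 tumor libraries and from 43.1 to 65.1 CPM in the 12 lung libraries. With shRenilla it was at 36.8, 36.7, 27.7 and 36.3 CPM in tumor and at 45.5, 65.1, 49.6 and 46.7 CPM in lung (0.59 ± 0.14, adjusted p = 0.00237, and 0.47 with adjusted p = 0.009975 without lung shRenilla B). With shAsns-2 it was at 44.3, 48.1, 41.7 and 28.9 CPM in tumor, below all 4 lung libraries (0.48 ± 0.14, adjusted p = 0.0131, and 0.0613 without tumor shAsns-2 D). Under the label shAsns-1 it was at 34.2, 31.8, 42.5 and 36.8 CPM in tumor, again below every lung library, but edgeR did not call it (0.36 ± 0.14, adjusted p = 0.0930). So at each label all 4 lung libraries lay above all 4 tumor libraries. Within a site Slc7a11 was called between no pair of labels by edgeR.

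With shAsns-2, the site comparison called 5 of 9 transporters (20.9% of all genes), 1 higher and 4 lower in lung (10.1% and 10.9%). Groups did not overlap for Slc7a11, above, and for Slc7a5 and Slc38a1, below (18.2% of all genes, 8.54% above and 9.66% below). Slc38a1 (-0.65 ± 0.10, adjusted p = 2.74e-05), Slc1a5 (-0.86 ± 0.17, adjusted p = 0.000674) and Slc7a5 (-0.77 ± 0.17, adjusted p = 0.00172) were lower. Slc3a2 was also called lower (-0.45 ± 0.15, adjusted p = 0.0300), with lung libraries at 101, 103, 121 and 164 CPM. This call was lost with only the 2 groups in the fit (adjusted p = 0.0859) and without any of tumor shAsns-2 A, C or D and lung shAsns-2 A, B or C (adjusted p from 0.0715 to 0.139). Without lung shAsns-2 D the values of Slc3a2 and Slc1a5 were -0.59 and -1.10 (adjusted p = 0.00250 and 6.23e-06), and Slc7a1 was called lower as well (-0.45, adjusted p = 0.0304), while the share of all genes called was 31.3%.

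Under the label shAsns-1, 0 of 9 transporters were called between sites by edgeR (8.55% of all genes). Slc3a2 and Slc7a11 had unadjusted p-values below 0.05. Slc3a2 stood at 130, 98.1, 96.9 and 125 CPM in lung (0.45 ± 0.15, adjusted p = 0.0520), and DESeq2 called it (adjusted p = 0.0488, 6.04% of all genes). Both genes were called by limma (32.8% of all genes), with only these 2 groups in the fit (30.6%) and without the pair lung shAsns-2 D and shRenilla B (23.7%). The 4 lung libraries of Slc7a11 lay above those of tumor, as for 15.5% of all genes. Slc38a1 had an interval of -0.22 to 0.19 and Slc1a5 one of -0.29 to 0.41. The heat map of log2 fold changes collects all 11 comparisons.

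**Figure D4:**
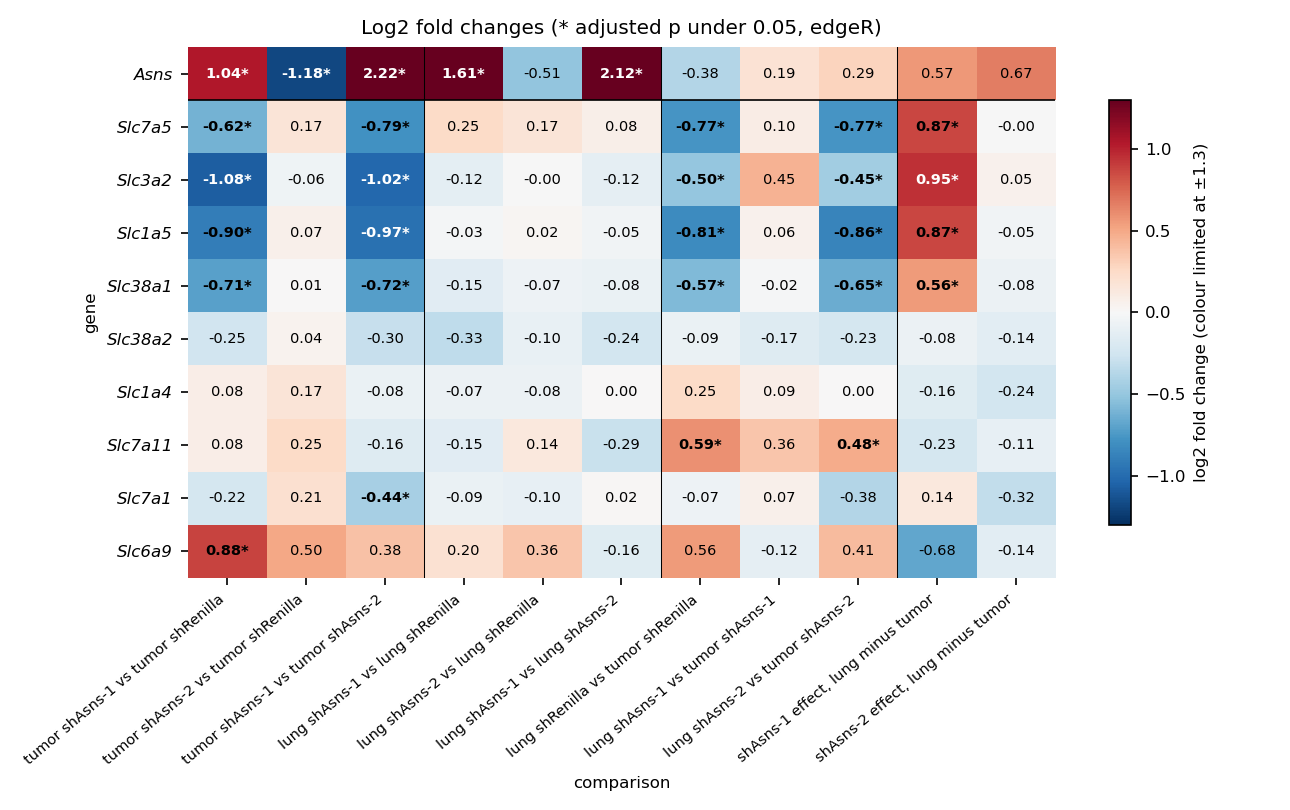
Log2 fold changes of Asns and the 9 tested transporter genes (rows) in 11 comparisons (columns), printed in each cell, with an asterisk where the adjusted p of edgeR was under 0.05 and the colour limited at ±1.3. Slc7a5, Slc3a2, Slc1a5 and Slc38a1 carry asterisks in the tumor comparisons with shAsns-1 and in the site comparisons with shRenilla and shAsns-2, and Slc1a4 and Slc38a2 carry none.

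Between the tumor groups, epithelial genes moved with these 4 transporters. Of 9 epithelial markers, all tested, 7 were lower and 0 higher in the tumor libraries labelled shAsns-1 than in shRenilla (all genes: 17.7% lower, 16.2% higher). Their summed level was 756 to 912 CPM in tumor shRenilla, 934 to 1067 CPM in tumor shAsns-2, and 455 to 618 CPM under the tumor label shAsns-1. In lung it was 421 to 479 CPM under shAsns-1, 430 to 602 CPM with shRenilla and 382 to 790 CPM with shAsns-2, where library D was the lowest and library A the highest, within the range of tumor shRenilla. Each of the 4 transporters was highest of the lung shAsns-2 group in library D. With shRenilla 6 of the 9 markers were lower and 0 higher in lung than in tumor (all genes: 9.82% and 12%). With shAsns-2 it was 6 and 0 (10.9% and 10.1%), and under shAsns-1 3 and 0 (2.54% and 6%). The site difference of the shAsns-1 label was called higher for 6 and lower for 0 (6.96% and 7.27%). No epithelial marker was at 0 in any group. The first principal component separated the same tumor groups. It ran from 32.4 to 43.7 in the 8 libraries of tumor shRenilla and tumor shAsns-2 and from -21.6 to -14.3 under the tumor label shAsns-1. In lung shAsns-2 the component lay at 0.199 in library D, with the lowest epithelial sum, and at -26.5 in library A, with the highest. The sums of fibroblast and neutrophil markers were higher under the tumor label shAsns-1. Of 3 tested macrophage markers, 1 was lower and 0 higher there than in tumor shRenilla (all genes: 17.7% and 16.2%). Fibroblast markers summed to 24.0 to 32.4 CPM under the tumor label shAsns-1, 15.7 to 18.2 CPM in tumor shRenilla and 16.3 to 20.9 CPM in tumor shAsns-2, and 1 of 4 tested, Pdgfra, was higher under shAsns-1 (0.79 ± 0.15 against shRenilla). Neutrophil markers summed to 2.39 to 3.35, 1.40 to 2.28 and 0.598 to 1.53 CPM in the same order, and the 1 tested, S100a8, was higher (0.73 ± 0.24). In lung the fibroblast sums were 23.9 to 70.0 CPM and the neutrophil sums 2.91 to 10.2 CPM. Macrophage markers summed to 9.75 to 14.2 CPM in tumor and 13.6 to 21.5 CPM in lung. Of the 4 tested fibroblast markers 2 were higher and 0 lower in lung than in tumor shRenilla (all genes: 12% and 9.82%). Under shAsns-1 it was 3 and 0 (6% and 2.54%), and with shAsns-2 1 and 0 (10.1% and 10.9%). Of 3 tested macrophage markers 2, 1 and 1 were higher and 0 lower in the same order, and S100a8 was higher in lung at each label. Leukocyte, endothelial and lung epithelial markers stayed at or below 0.589, 1.39 and 0.343 CPM in every library, with the leukocyte gene Nkg7 at 0 in all 6 groups and the lung surfactant gene Sftpc at 0 in the 3 tumor groups. The part of these markers in the transporter differences was not tested, and fewer cells with a transcript cannot be told apart from less of it per cell in bulk RNA.

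Other amino acid transporters were examined as a list of 46 genes, of which 45 were in the table and 20 were tested. In the tumor libraries labelled shAsns-1 against shRenilla 1 was higher and 4 were lower (all genes: 16.2% and 17.7%), with a median log2 fold change of -0.32. The largest differences were in Slc7a7 (-1.25 ± 0.24, adjusted p = 0.000257), the light chain of a cationic amino acid exchanger that also pairs with Slc3a2, Slc38a9 (-0.75 ± 0.20, adjusted p = 0.00593), a lysosomal arginine sensor, and Slc7a6 (-0.71 ± 0.13, adjusted p = 0.000211), another partner of Slc3a2. Against tumor shAsns-2 8 were lower (all genes: 15%) and 0 higher, among them Slc7a7 (-1.01), Slc38a9 (-0.81) and Slc1a7 (-0.73). Between tumor shAsns-2 and shRenilla, and between the hairpins in lung, edgeR called 0 of 20 in each comparison, and so did DESeq2. Over all genes edgeR called 0.0634% in tumor and 0.206%, 0% and 0.261% in lung (shAsns-1 against shRenilla, shAsns-2 against shRenilla, and between the hairpins). Unadjusted edgeR p-values below 0.05 numbered 1 in tumor and 0, 3 and 0 in lung, in the same order. Over all 12625 genes they numbered 893 in tumor and 1665, 1068 and 707 in lung. Limma called 0 in tumor and 3, 6 and 6 in lung (all genes: 13 of 12625, then 6.68%, 12.5% and 15.2%).

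Between sites this wider list was called in both directions. In shRenilla 3 were higher and 3 lower in lung (21.8% of all genes called), led by Slc7a4 (1.66 ± 0.38, adjusted p = 0.00220), Slc7a14 (-0.89) and Slc43a2 (0.69). Slc43a2 (LAT4), a large neutral amino acid transporter like the near-silent Slc43a1, averaged 2.31 CPM in lung and 1.43 CPM in tumor shRenilla. Under the label shAsns-1 2 were higher (8.55% of all genes called), Slc43a2 (0.84) and the lysosomal cystine transporter Ctns (0.49). With shAsns-2 3 were lower (20.9% of all genes called), Slc1a7 (-0.90), Slc38a9 (-0.63) and Slc7a6 (-0.61). The site difference of the shAsns-1 label was called for 2 (14.2% of all genes), Slc7a7 (1.08 ± 0.34) and the taurine transporter Slc6a6 (0.85 ± 0.27).

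The regulators of the amino acid response, a list of 12 genes that includes the transcription factor Atf4, did not move together. In the tumor libraries labelled shAsns-1 against shRenilla 3 were higher and 2 lower (all genes: 16.2% and 17.7%). Atf4 averaged 152 against 191 CPM (-0.33 ± 0.12, adjusted p = 0.0311). Atf3, a stress-induced factor, was lower (-1.26 ± 0.12), and Nupr1 (1.15 ± 0.20) and Cebpb (1.06 ± 0.14), both of which respond to ATF4 or partner with it, were higher. In tumor shAsns-2 against shRenilla 0 of 12 were called by edgeR (0.0634% of all genes), with 5 at an unadjusted p under 0.05 (893 of 12625 genes).

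Slc7a11 supplies cystine for glutathione synthesis. Of 7 tested genes on a list of cystine and glutathione metabolism, 5 were higher and 0 lower in the tumor libraries labelled shAsns-1 than in shRenilla (all genes: 16.2% higher, 17.7% lower), with a median log2 fold change of 0.41 against -0.01 over all genes. Cth, which makes cysteine from cystathionine, was at 21.3 against 9.07 CPM (1.23 ± 0.21), Gpx4, which reduces lipid peroxides, at 96.7 against 61.5 CPM (0.65 ± 0.25), and Gsr, glutathione reductase, at 294 against 196 CPM (0.58 ± 0.12). Slc7a11 was at 36.3 against 34.4 CPM in the same comparison (0.08 ± 0.14, adjusted p = 0.676). Of 12 tested genes through which amino acids reach mTORC1, 4 were higher and 3 lower in this comparison (all genes: 16.2% and 17.7%), among them Slc38a9 (-0.75), the leucyl-tRNA synthetase gene Lars (-0.60 ± 0.09) and Mtor (0.54 ± 0.10).

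The 2 transporters with the widest range over the 6 groups were matched to other tested genes by the root mean square difference of the 6 centred group means of log2 CPM. The closest to Slc3a2 were Sgpp2 and Gprc5a (0.06 each) and Gpaa1 (0.07), and the closest to Slc1a5 were Snord96a (0.03), Efnb3 (0.04) and D930016D06Rik (0.06). These are nearest patterns among 12625 genes over 6 points, given as a description.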

How the data were processed

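The libraries were made from Trizol RNA with the Nugen Ovation RNAseq V2 kit, per the labels. The deposited values are raw read counts per gene symbol, made by the authors with Bowtie2, HTSeq and the build mm10 according to the submitters' processing notes. Versions, annotation and strand setting are not given in the sources used here. The counts were used unchanged. In R 4.3.3, edgeR 4.0.16 fitted a quasi-likelihood model with robust dispersion and TMM scaling to all 24 libraries, with 1 mean per group, for the 12625 genes kept by filterByExpr. P-values were adjusted by Benjamini-Hochberg within each of 11 comparisons and called at 0.05. The SE was taken from the log2 fold change and the F statistic of its test. The biological coefficient of variation was 14.9%. Alternatives were limma 3.58.1 with library weights, DESeq2 1.42.0, edgeR with the size factors of DESeq2, all genes without the filter, fits of the groups compared alone, thinning to the lowest depth, a block for the replicate letter, lung shAsns-2 D and shRenilla B both left out, and each library left out in turn.

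The transporters, the lists and these tests were chosen with earlier results of these data known. Named by rule were all 10 transporters, Asns, up to 3 called genes per comparison of each related list, by absolute fold change, and the 3 nearest patterns to each of the 2 widest-ranging transporters. Atf4 was named outside this rule, after its values were seen, as were the single markers. Exon lengths and positions came from GENCODE M21 on GRCm38, of which mm10 is the UCSC name. Promoter windows came from RefSeq on GRCm38.p6. No Slc7a5, Slc1a5 or Slc38a1 window was used.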

Additional observations from a re-analysis of the deposited data

Results flagged for a closer look

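Among 60 groups of 4 libraries (Asns and the 9 tested transporters in 6 groups), 5 held a library far from the other 3, where chance gives about 1 in 20. Slc7a11 in tumor shRenilla C stood at 27.7 CPM, below the 36.3 to 36.8 CPM of the other 3 libraries. Tumor shAsns-2 D was high for Slc7a5 (145 CPM, next 94.9) and for Slc38a1 (191 CPM, next 168). Slc1a5 was high in lung shAsns-2 D (78.4 CPM, next 47.1) and in lung shAsns-1 A (55.7 CPM, next 49.1).

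The label difference between shAsns-1 and shRenilla differed between lung and tumor, by a test of the difference itself (lung minus tumor, log2, edgeR), for 4 transporters: Slc3a2 by 0.95, Slc7a5 by 0.87, Slc1a5 by 0.87 and Slc38a1 by 0.56. The wider transporter list added Slc7a7 (1.08) and Slc6a6 (0.85). Among regulators of the amino acid response the values were 1.52 for Atf3 (adjusted p = 6.91e-07), 0.49 for Atf4, -0.98 for Nupr1 and -0.65 for Cebpb. Cth (-1.72, adjusted p = 0.000241) and Gsr (-0.52) of cystine and glutathione metabolism differed in the opposite direction to Slc3a2, as did Mtor (-0.41), while Lars differed by 0.41.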

How the results depend on the processing

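For the 9 tested transporters, 24 of 99 results were called, and their 192 values under alternatives other than leaving out single libraries kept direction and call in 190, with 2 losing the call, while 21 uncalled values became calls, 1 of them (Slc1a5) in the opposite direction. Limma with library weights called 1, 2 and 1 transporters in the lung comparisons of shAsns-1 with shRenilla, shAsns-2 with shRenilla and shAsns-1 with shAsns-2 (0 by edgeR in each). Between sites it called 2 under shAsns-1 (4138 of all 12625 genes) and 8 under shAsns-2 (5064 of all 12625 genes). It also turned Slc1a5 in lung shAsns-2 from 0.02 to -0.27 (adjusted p = 0.0463). The count between sites under shAsns-1, 0 by edgeR on all 24 libraries, was 1 with DESeq2, 2 with only the compared groups, 1 with the replicate block and 2 without the pair lung shAsns-2 D and shRenilla B. Leaving out single libraries gave 3 to 6 transporters between sites with shAsns-2 (3 without tumor shAsns-2 D) and ended 13 of 224 called values. The cause was not tested.

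The wider list of 20 transporters moved more. Its count under the tumor label shAsns-1 against shRenilla was 5, 9 without that pair and 3 without tumor shRenilla C. Its site difference of the shAsns-1 label was 2, and 0 without the filter or without tumor shAsns-1 A or C, tumor shRenilla A or lung shAsns-1 D. Over all alternatives its counts ran from 3 to 8 (8 as reported) between the tumor hairpins, and between sites from 3 to 8 (6 as reported) with shRenilla, 1 to 5 (2 as reported) under shAsns-1 and 2 to 10 (3 as reported) with shAsns-2, the 10 without lung shAsns-2 D. Over all genes limma called 843, 1582 and 1921 in the lung hairpin comparisons (26, 0 and 33 by edgeR) and 4138 between sites under shAsns-1 (1079 by edgeR, 70.3% of them higher), where the compared groups alone gave 3683 (49.9% higher) and DESeq2 1418 (59.3%). Tumor shAsns-2 against shRenilla gave 8 genes by edgeR, 47 by DESeq2, 50 without the pair and 3 with the compared groups alone.

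No consistent pairing of libraries by replicate letter was seen, which does not exclude shared animals or isolates. Same-letter libraries of the groups compared correlated from -0.415 to 0.347 in their deviations from group means, and in no comparison did more than 2 of 4 match best with their own letter. The replicate block changed no transporter call beyond Slc3a2 between sites under shAsns-1 (adjusted p = 0.0417). Depth limits Slc43a1 and Slc6a9 most.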
